A study of Homo sapiens with 8 samples.

Results

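The genes lie next to one another on the long arm of human chromosome 11, from CLMP on the centromeric side to ST14 towards the telomere. They are those listed on chromosome 11 in the RefSeq table of assembly GRCh38.p14 whose start lies between the starts of these genes, both included, and for which the array had a probe set assigned to exactly 1 gene. Each gene is represented by its brightest probe set over all arrays. This gave 75 members of the 203 RefSeq genes of the interval, out of 19775 genes measured in the whole series. Of these 75, 58 are protein-coding, 15 are long non-coding RNA genes and 2 are pseudogenes. The run was singled out because many of its genes gave a lower signal in one cell line than in the other, so the differences between the lines are given below as a description, with no test. The oxygen contrasts played no part in that choice and were tested.

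The colon cancer cell lines DKS-5, labelled K-ras mutant, and DKO-3, labelled K-ras wild-type, are written DKS5 and DKO3 below. Cells of both lines, grown to 70% confluency, were kept at 21% O2 (normoxia) or spent 12 h at 1% O2 (hypoxia), and each of these 4 groups has 2 arrays. Each genotype is represented by 1 cell line, so line and genotype cannot be told apart. K-ras expression is not analysed here. The labels do not state that replicates are separate cultures. The p-values rest on the scatter between the 2 arrays of a group, pooled over the 4 groups and moderated across genes by limma. Part or all of this scatter may therefore be technical. RNA was amplified to cDNA before labelling and read on Affymetrix HG-U133 Plus 2.0 arrays, and precision is limited by having 2 arrays a group. All values below are scaled signals in arbitrary units, or differences of log2(signal + 16), which understate the change of dim genes.

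The trimmed mean of the deposited signals ran from 132.5 to 201.0 over the 8 arrays before scaling to 172.1. The ratio of the GAPDH 3' to 5' control probe sets, a sign of RNA quality, ran from 2.36 to 4.23 in DKS5 and from 1.53 to 4.15 in DKO3, and was lowest, at 1.53 and 1.61, on the DKO3 hypoxia arrays. The same ratio for ACTB ran from 25.6 to 55.1 in DKS5 and was 49.0 and 14.9 in DKO3 normoxia and 11.5 and 11.02 in DKO3 hypoxia, so 3 of the 4 DKO3 arrays lay below every DKS5 array. The part of either ratio in the differences between the lines was not tested beyond the fit with the GAPDH ratio given below. Of 12 colon epithelium markers, 9 lay above the filter on dim genes. CDX1, LGALS4 and CEACAM5 did not. The summed signal of the 12 was 18564 to 23338 in DKS5 and 19355 to 22722 in DKO3. Of 16 measured markers of blood, endothelial, stromal and neural cells, 4 lay above the filter. The summed signal of all 16 was 246 to 289 in DKS5 and 180 to 264 in DKO3. Among the 9 epithelial markers above the filter, 1 was higher and 2 were lower in DKS5 in normoxia (limma, adjusted p under 0.05). In hypoxia 1 was higher and 1 lower. The median DKS5 minus DKO3 difference of the 9 was -0.01 in normoxia and 0.02 in hypoxia. Keratin 20 (KRT20), the only one whose signals are given here, gave 6.20 to 15.5 in DKS5 and 301 to 445 in DKO3. It does not stand for the list. These are bulk samples, in which fewer cells of a type and less RNA per cell cannot be told apart.

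Neighbouring genes on a chromosome usually have unrelated functions, yet they share their copy number, their replication timing and often their chromatin domain, and genes that lie head to head can share a promoter. The stretch examined here holds a DNA damage checkpoint kinase (CHEK1), the founding ETS transcription factor (ETS1), part of the machinery that brings new proteins into the endoplasmic reticulum and glycosylates them (SRPRA, STT3A), and the epithelial surface protease matriptase (ST14). It also holds a cluster of olfactory receptor genes, which are normally silent outside the nose. DNA copy number was not measured in the data used here.

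Most members above the filter on dim genes were lower in DKS5 than in DKO3, at both oxygen levels and by modest amounts. Of the 75 members, 40 had a mean signal above the filter, the 40th percentile of all probe sets, a scaled signal of 13.8. The mean is over all arrays, so a member can pass through the line where it is higher. ESAM had means of 11.8 and 11.6 in DKS5 normoxia and hypoxia, and 22.6 and 33.0 in DKO3. In the other direction, CLMP had a mean of 11.1 in DKO3 normoxia and 26.5 in DKS5 normoxia. Their median DKS5 minus DKO3 difference was -0.30 in normoxia and -0.31 in hypoxia on the log2 scale, beside 0.01 and -0.03 over all 12735 genes above the filter. Over all 75 members, dim ones included, the medians were -0.10 and -0.11. The quartiles of the 40 were -0.46 and 0.07 in normoxia and -0.66 and 0.07 in hypoxia, so the difference was not shared by all of them.

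In each oxygen condition 28 of the 40 (70%) were lower in DKS5, beside 49.2% of all genes above the filter in normoxia and 53.8% in hypoxia. By direction, 25 of the 40 members (62.5%) were lower in DKS5 at both oxygen levels, beside 35.6% of all genes above the filter. Another 9 (22.5%) were higher at both, beside 32.6% of all, and 6 changed sides. All 4 DKS5 arrays lay below all 4 DKO3 arrays for 14 members (35%), beside 8.43% of all genes, and above them for 1 member, CLMP (2.5%), beside 5.43%. Within an oxygen level, both DKS5 arrays were below both DKO3 arrays for 22 members in normoxia (55%, beside 22.2%) and 23 in hypoxia (57.5%, beside 25.9%), and above them for 5 (12.5%, beside 21.5%) and 7 (17.5%, beside 19%). A difference of -1 or lower was seen for 3 members in normoxia (7.5%, beside 1.99% of all genes) and 4 in hypoxia (10%, beside 2.84%). No member reached 1 in the other direction, beside 0.683% and 0.824% of all genes. The members were chosen on this contrast, so nothing is read from these shares. Of the 14, VWA5A and CCDC15 ranged from 10.1 to 20.3 and from 28.4 to 59.7 in DKS5, and from 20.5 to 33.0 and from 62.5 to 94.5 in DKO3, and the other 12 are described below.

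The shift is given here array by array, which restates the choice of the run and is no independent sign of it. Taking each member above the filter relative to its own mean over the 8 arrays, the median over the 40 was -0.17 and -0.14 on the DKS5 normoxia arrays, -0.15 and -0.12 on the DKS5 hypoxia arrays, 0.10 and 0.12 on the DKO3 normoxia arrays, and 0.19 and 0.14 on the DKO3 hypoxia arrays. All 4 DKS5 arrays were thus below all 4 DKO3 arrays. With the GAPDH ratio as a covariate in the fit the median was -0.33 in normoxia and -0.39 in hypoxia. Over all genes the same covariate took the genes past the threshold (limma, adjusted p under 0.05) between the lines from 324 to 215 in normoxia and from 557 to 106 in hypoxia.

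**Figure D1:**
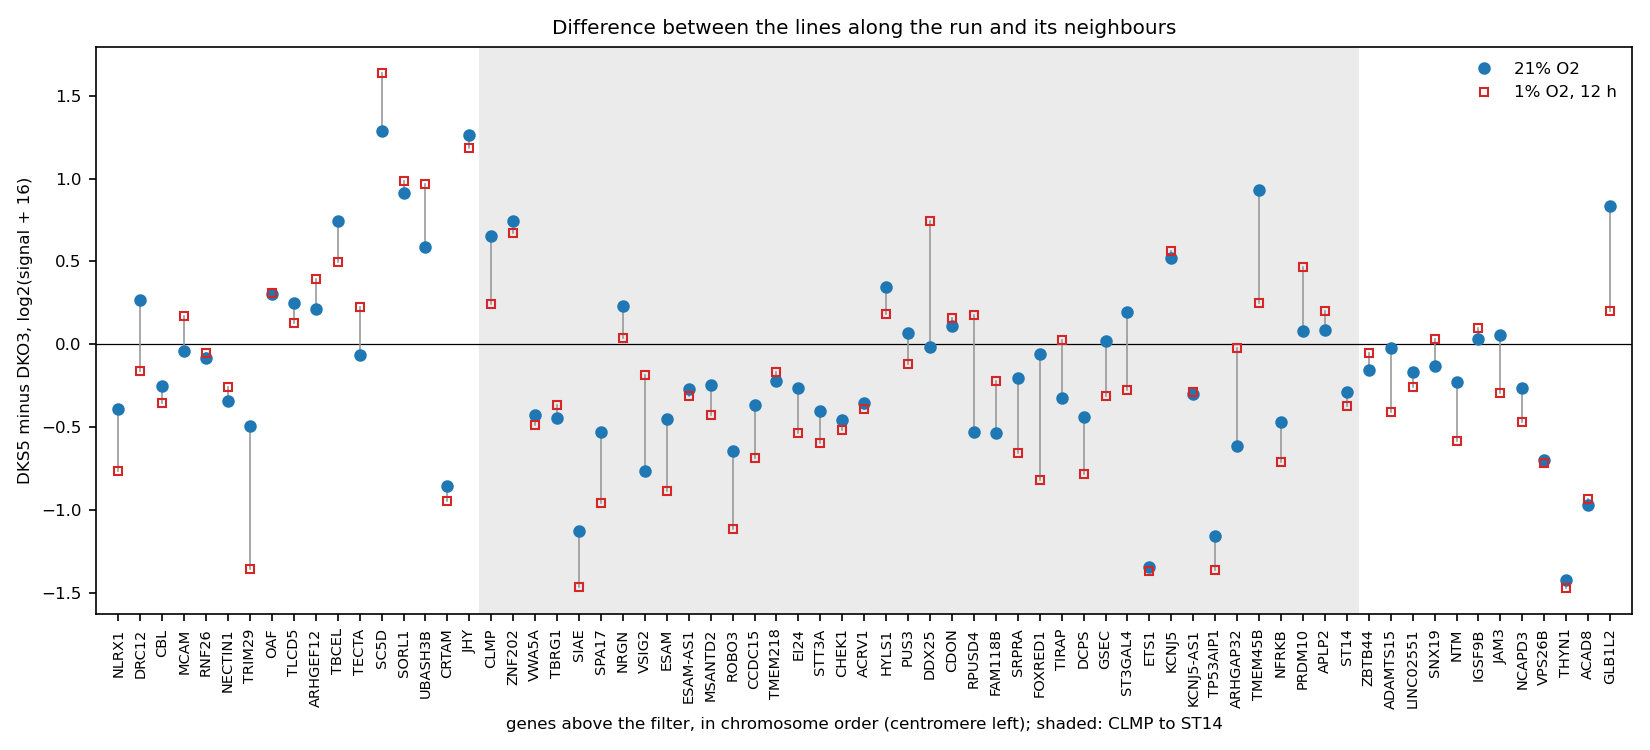
DKS5 minus DKO3 on the log2(signal + 16) scale for every gene above the filter from the centromeric neighbours (left) through the run (shaded) to the telomeric neighbours, with filled circles for 21% O2 and open squares for 12 h at 1% O2. Inside the shading 25 of 40 genes have both symbols below 0, and the 11 genes above the filter from VSIG2 to ACRV1 all do.

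The lower signal was not spread evenly along the run. It began inside the run's centromeric end: CLMP and ZNF202, the first members above the filter, were higher in DKS5. The next 4 in order, VWA5A, TBRG1, SIAE and SPA17, were lower at both oxygen levels, with medians of -0.49 in normoxia and -0.72 in hypoxia. After NRGN, which encodes the calmodulin-binding protein neurogranin and differed by 0.23 and 0.04, came the longest stretch. Its 11 genes above the filter, from VSIG2 to ACRV1, ran from -0.76 to -0.22 in normoxia and from -1.11 to -0.16 in hypoxia. Among them, VSIG2 in hypoxia turned from -0.19 to 0.11 without replicate 2 of DKS5 hypoxia and to 0.09 with its probe sets averaged. HYLS1, PUS3, DDX25 and CDON followed, with normoxic differences of 0.35, 0.07, -0.01 and 0.11. Shorter stretches of 3 genes each, FAM118B to FOXRED1 and KCNJ5-AS1 to ARHGAP32, were again lower at both levels. The margins were narrow for FOXRED1 in normoxia, at -0.06, which turned to 0.15 without replicate 2 of DKO3 normoxia, and for ARHGAP32 in hypoxia, at -0.02. All these stretches are unbroken only among genes above the filter. Of the dim members between VSIG2 and ACRV1, MSANTD2-AS1 was lower in DKS5 at both levels. ROBO4, SLC37A2, PKNOX2, FEZ1 and LOC403312 changed sides between the levels. How often such stretches occur elsewhere in the genome was not counted.

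The members are taken below by the role of the protein they encode, in groups made after their values were seen. CHEK1, TP53AIP1, EI24 and TBRG1 act in DNA damage responses and growth control. CHEK1, the kinase that halts the cell cycle when replication stalls, gave 592 and 578 in DKS5 normoxia, 624 and 653 in DKS5 hypoxia, 821 and 794 in DKO3 normoxia, and 833 and 1022 in DKO3 hypoxia. Every DKS5 array was below every DKO3 array, and the differences were -0.45 in normoxia and -0.52 in hypoxia. All 4 CHEK1 probe sets above the filter were lower in DKS5 at both oxygen levels, from -0.73 to -0.09.

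TP53AIP1, which encodes a p53-induced mitochondrial protein, gave 52.7 and 43.5 in DKS5 normoxia, 65.0 and 62.8 in DKS5 hypoxia, 189 and 82.8 in DKO3 normoxia, and 269 and 132 in DKO3 hypoxia. The lines did not overlap, although the DKO3 arrays differed widely from each other, and the DKS5 signal was 2.23-fold lower in normoxia and 2.57-fold lower in hypoxia on the offset scale. EI24, a p53-induced membrane protein of the endoplasmic reticulum, ranged from 455 to 548 in DKS5 and from 577 to 837 in DKO3, with differences of -0.26 and -0.54. TBRG1, a growth inhibitor that acts on the p53 pathway, ranged from 158 to 168 in DKS5 and from 184 to 274 in DKO3, and its 5 probe sets above the filter were all lower in DKS5 at both levels.

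Transcription and chromatin genes come next. ETS1, with the lowest normoxic difference of the 40 members, is the founding member of the ETS family, whose proteins bind a GGAA core and include end points of Ras signalling. Its signal was 21.3 and 13.3 in DKS5 normoxia, 14.4 and 11.6 in DKS5 hypoxia, 61.3 and 75.3 in DKO3 normoxia, and 43.9 and 77.4 in DKO3 hypoxia. The lines did not overlap, and the differences were -1.35 and -1.37, or 2.54-fold and 2.59-fold lower in DKS5 on the offset scale. The DKS5 signals lie around the filter value of 13.8, and the other ETS1 probe sets were below the filter, so the size rests on 1 probe set. The neighbouring ETS gene FLI1 and the antisense transcript ETS1-AS1 were below the filter on average.

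NFRKB, a subunit of the INO80 chromatin remodeller, gave 248 and 258 in DKS5 normoxia, 253 and 266 in DKS5 hypoxia, 373 and 342 in DKO3 normoxia, and 431 and 438 in DKO3 hypoxia. The lines were again separate, with differences of -0.47 and -0.71, and 1 of its 4 probe sets above the filter was higher in DKS5 in normoxia, by 0.06. ZNF202, a zinc finger repressor of lipid metabolism genes, went the other way. It gave 404 and 464 in DKS5 normoxia, 267 and 245 in DKS5 hypoxia, 302 and 210 in DKO3 normoxia, and 130 and 183 in DKO3 hypoxia. At each oxygen level DKS5 was above DKO3, by 0.74 and 0.67, and its other probe set gave 0.97 and 0.66. PRDM10, a zinc finger protein near the telomeric end, differed by 0.08 and 0.47, and its other probe set gave 0.08 and -0.27.

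**Figure D2:**
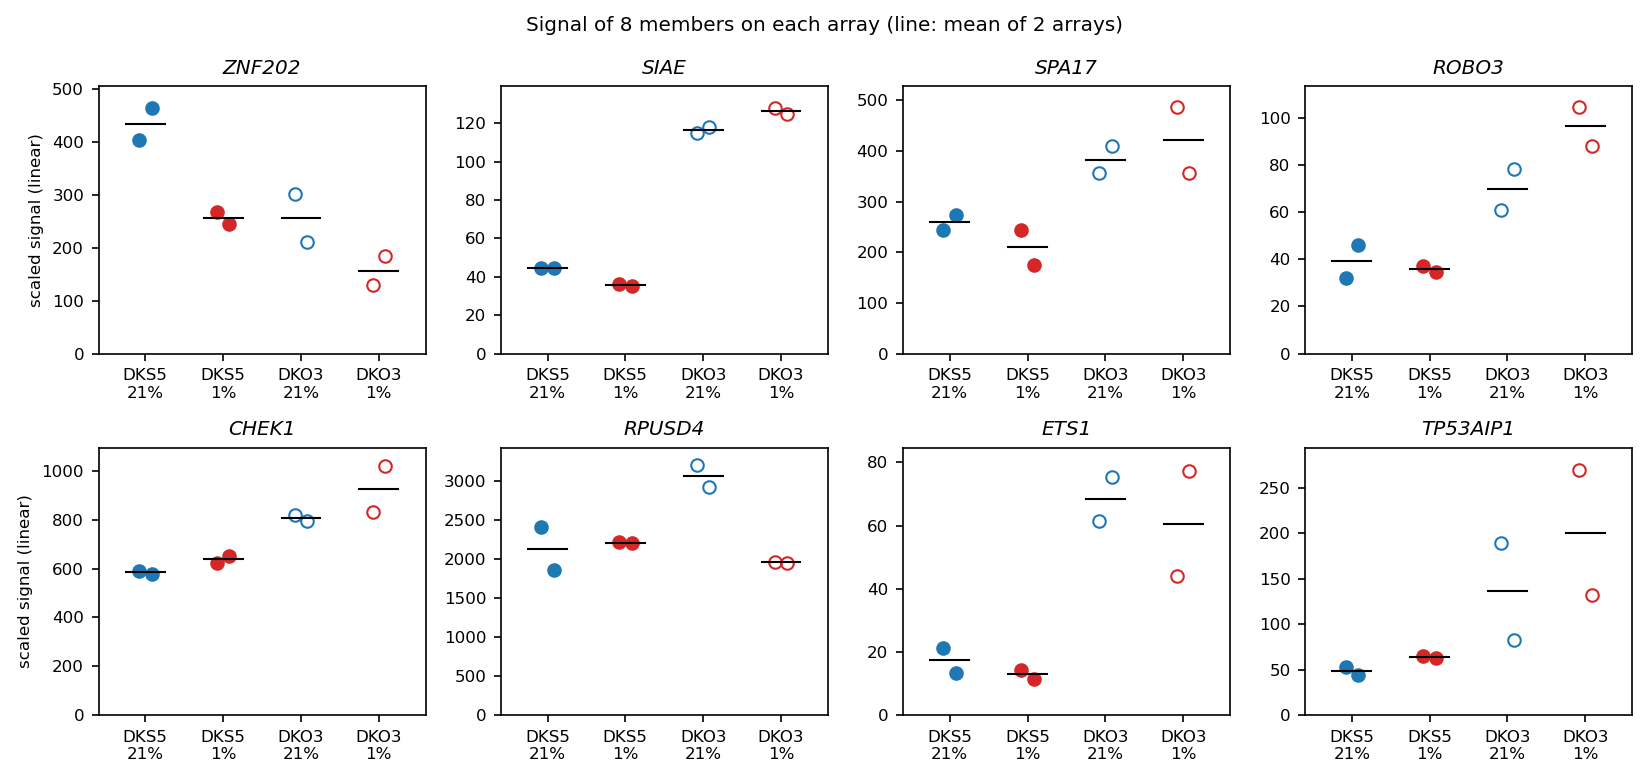
Scaled signal on a linear axis from 0 for 8 members, with 1 point per array and a bar at the mean of 2 arrays, for DKS5 (filled) and DKO3 (open) at 21% and 1% O2. SIAE, SPA17, ROBO3, CHEK1, ETS1 and TP53AIP1 are lower on every DKS5 array, ZNF202 is higher in DKS5 at each oxygen level, and RPUSD4 is lower in DKS5 at 21% O2 alone.

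SIAE, STT3A, SRPRA and ST3GAL4 encode proteins of the secretory and glycosylation machinery. SIAE, which removes acetyl groups from sialic acids, gave 44.6 and 44.5 in DKS5 normoxia, 36.2 and 35.0 in DKS5 hypoxia, 115 and 118 in DKO3 normoxia, and 128 and 125 in DKO3 hypoxia. Replicates lay close together and the lines far apart, with differences of -1.13 and -1.47, or 2.19-fold and 2.76-fold lower in DKS5 on the offset scale. Its 4 probe sets above the filter gave -1.17 to -0.89 in normoxia and -1.47 to -0.82 in hypoxia.

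STT3A, a catalytic subunit of the oligosaccharyltransferase, gave 1416 and 1710 in DKS5 normoxia, 1766 and 1454 in DKS5 hypoxia, 1856 and 2288 in DKO3 normoxia, and 2421 and 2439 in DKO3 hypoxia. All DKS5 arrays were below all DKO3 arrays, with differences of -0.40 and -0.60. SRPRA, a subunit of the receptor for the signal recognition particle, ranged from 687 to 1077 in DKS5 and from 1078 to 1344 in DKO3, with differences of -0.20 and -0.65. Its lines touched: the highest DKS5 array lay just below the lowest DKO3 array. ST3GAL4, a sialyltransferase, was dim and overlapped between the lines, with differences of 0.20 and -0.28.

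SIAE lies head to head with SPA17, which encodes a sperm fibrous sheath protein also found outside the testis. SPA17 gave 245 and 274 in DKS5 normoxia, 244 and 175 in DKS5 hypoxia, 356 and 410 in DKO3 normoxia, and 488 and 356 in DKO3 hypoxia. As for SIAE, every DKS5 array was below every DKO3 array, with differences of -0.53 and -0.96. The sequence between their annotated starts is printed because both genes of the pair were lower in DKS5 at both oxygen levels. In RefSeq (GRCh38.p14) it is chr11:124673740-124673903, 164 bases on the plus strand, with SIAE transcribed leftwards and SPA17 rightwards.
SIAE to SPA17: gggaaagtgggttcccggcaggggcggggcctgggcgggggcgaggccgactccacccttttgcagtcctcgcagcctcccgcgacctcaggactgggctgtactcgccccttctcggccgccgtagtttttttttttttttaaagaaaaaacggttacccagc

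It is 61.6% G and C. The ETS-type motif CCGGAA was not found in it on either strand, nor was CACGTG, nor the shorter ACGTG, which says only that these letters are not in this window. The first motif was searched because the run holds ETS1, and the others because basic helix-loop-helix factors bind CACGTG and hypoxia-inducible factors bind sites with ACGTG. The longer of these last motifs reads the same on both strands and contains the shorter on each. In the 300-base promoter windows, which reach beyond the interval shown, SIAE and SPA17 each had 1 match of CCGGAA. Over such windows, CCGGAA was found for 12 of the 53 members with a RefSeq promoter entry (22.6%) and for 20.1% of all genes in the table. CACGTG was found for 8 of 53 (15.1%, beside 8.77%) and ACGTG for 17 of 53 (32.1%, beside 24.9%). For the 29 members above the filter with an entry the counts were 11 (37.9%, beside 33.7% of all genes above the filter with an entry), 7 (24.1%, beside 12.3%) and 11 (37.9%, beside 32.0%). Genes of a head-to-head pair are counted separately in these shares, although their windows overlap. RPUSD4 and FAM118B, described below, both count for CACGTG with the same sites. SIAE with SPA17, and PUS3 with DDX25, all count for CCGGAA. ETS1, CLMP and ST14 are among the members with no entry.

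RPUSD4, PUS3, DDX25, DCPS and FAM118B act on RNA or in RNA-rich nuclear bodies. RPUSD4, a mitochondrial pseudouridine synthase, gave 2403 and 1857 in DKS5 normoxia, 2208 and 2203 in DKS5 hypoxia, 3193 and 2916 in DKO3 normoxia, and 1961 and 1944 in DKO3 hypoxia. DKS5 was below DKO3 in normoxia and above it in hypoxia, without overlap at either level, with differences of -0.53 and 0.17. Without array scaling the hypoxic difference was -0.28 instead. FAM118B, a protein of Cajal bodies, gave 1096 and 1105 in DKS5 normoxia, 1132 and 1176 in DKS5 hypoxia, 1572 and 1637 in DKO3 normoxia, and 1360 and 1333 in DKO3 hypoxia. It was lower on every DKS5 array, with differences of -0.54 and -0.22, and 1 of its 3 probe sets gave 0.17 in hypoxia.

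RPUSD4 and FAM118B also lie head to head, and the sequence between their starts is shown because both genes were lower on the DKS5 normoxia arrays and both had their lowest DKO3 signals in hypoxia. It is chr11:126211651-126211781 (GRCh38.p14, RefSeq), 131 bases on the plus strand, with RPUSD4 transcribed leftwards and FAM118B rightwards. Capitals mark CACGTG.
RPUSD4 to FAM118B: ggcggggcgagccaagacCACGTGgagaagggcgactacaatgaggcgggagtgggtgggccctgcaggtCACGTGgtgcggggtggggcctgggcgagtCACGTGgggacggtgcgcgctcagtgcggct

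The window is 71.8% G and C and holds CACGTG 3 times, which also counts as 6 matches of ACGTG over both strands. Of the 35116 windows of 131 bases before an annotated start in the RefSeq table, 4.16% hold at least 1 CACGTG and 13 hold 3 or more. The 13 include the windows of both genes of this pair, which hold the same sites. The matches are a description of the letters and not of binding.

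PUS3, a pseudouridine synthase for transfer RNA, and the testis-enriched RNA helicase DDX25 form the third head-to-head pair. PUS3 ranged from 128 to 204 in DKS5 and from 153 to 192 in DKO3, overlapping at both oxygen levels. DDX25 gave 26.7 and 17.5 in DKS5 normoxia, 38.1 and 35.2 in DKS5 hypoxia, 18.1 and 26.8 in DKO3 normoxia, and 19.0 and 12.2 in DKO3 hypoxia. It overlapped in normoxia and was higher in DKS5 in hypoxia, by 0.74. DCPS, the scavenger enzyme of mRNA caps, overlapped in normoxia and was lower in DKS5 in hypoxia, with differences of -0.44 and -0.79.

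The last group holds surface and adhesion proteins. CLMP, an adhesion molecule of epithelial junctions at the centromeric end of the run, gave 26.9 and 26.1 in DKS5 normoxia, 25.1 and 15.4 in DKS5 hypoxia, 9.70 and 12.4 in DKO3 normoxia, and 14.96 and 13.8 in DKO3 hypoxia. It was the member with all 4 DKS5 arrays above all 4 DKO3 arrays, although in hypoxia by a narrow margin, with differences of 0.65 and 0.24. ROBO3, a receptor of axon guidance, gave 32.0 and 46.3 in DKS5 normoxia, 37.0 and 34.7 in DKS5 hypoxia, 61.2 and 78.5 in DKO3 normoxia, and 105 and 88.4 in DKO3 hypoxia. It was lower on every DKS5 array, with differences of -0.64 in normoxia and -1.11 in hypoxia.

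ST14, at the telomeric end, encodes matriptase, a membrane protease of epithelial barriers. It gave 553 and 941 in DKS5 normoxia, 866 and 1026 in DKS5 hypoxia, 697 and 1124 in DKO3 normoxia, and 1191 and 1256 in DKO3 hypoxia. The lines overlapped in normoxia and were apart in hypoxia, with differences of -0.29 and -0.37. The normoxic difference was 0.09 without replicate 1 of DKS5 normoxia and 0.05 without replicate 2 of DKO3 normoxia, and the hypoxic one was 0.06 with the GAPDH ratio as a covariate. The direction at ST14 therefore depends on single arrays and on this covariate.

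KCNJ5, an inwardly rectifying potassium channel, gave 29.4 and 50.6 in DKS5 normoxia, 31.3 and 51.9 in DKS5 hypoxia, 20.3 and 24.5 in DKO3 normoxia, and 32.1 and 14.6 in DKO3 hypoxia. DKS5 was higher in normoxia without overlap, by 0.52, while in hypoxia the lines overlapped, with a difference of 0.56. Its other probe set above the filter gave -0.24 in normoxia and 0.38 in hypoxia. The overlapping gene KCNJ5-AS1 differed by -0.30 and -0.29.

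TMEM45B, a membrane protein, gave 114 and 264 in DKS5 normoxia, 213 and 169 in DKS5 hypoxia, 87.5 and 81.0 in DKO3 normoxia, and 168 and 147 in DKO3 hypoxia. It was higher in DKS5 at each level, by 0.93 and 0.25, with widely spaced DKS5 normoxia arrays. Its hypoxic direction turned without array scaling, to -0.17, and with the GAPDH covariate, to -0.06. Its other probe set above the filter gave 0.44 in normoxia and -0.01 in hypoxia. CDON, a co-receptor of hedgehog signalling, overlapped at both levels, with differences of 0.11 and 0.16 that turned to -0.01 and -0.16 when all its probe sets were averaged. VSIG2 and ESAM, adhesion proteins of the immunoglobulin superfamily, had differences of -0.76 and -0.19, and of -0.45 and -0.89.

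Where a gene had several probe sets, the others could be read beside the brightest. The 75 members had 155 probe sets, and 23 members above the filter had 48 further probe sets above it. Of these 48, 40 were lower in DKS5 in normoxia and 40 in hypoxia, with medians of -0.37 and -0.51. In normoxia 36 had the direction of the brightest probe set and 12 the opposite one, and in hypoxia the counts were 35 and 13. These probe sets measure the same RNA on the same arrays and are not independent of the choice of the run. The same shares over the further probe sets of all genes were not computed, so nothing is read from these counts. With all probe sets of a gene averaged, the hypoxic median of all genes above the filter was -0.08, beside -0.03 by the brightest. The members' hypoxic median relative to all genes was then -0.27, beside -0.28.

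APLP2, which encodes a relative of the amyloid precursor protein, showed the largest disagreement among its 8 probe sets. The brightest gave 4429 and 4835 in DKS5 normoxia, 4998 and 4957 in DKS5 hypoxia, 4189 and 4518 in DKO3 normoxia, and 4216 and 4435 in DKO3 hypoxia, a difference of 0.09 and 0.20. The 7 others were all lower in DKS5 in normoxia, from -1.09 to -0.13, and 5 of them in hypoxia, down to -1.42. Their mean with the brightest was -0.52 and -0.45, so the direction at APLP2 depends on the probe set. Some APLP2 probe sets are of types that the array's design marks as possibly binding other transcripts.

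ARHGAP32 likewise gave -0.62 in normoxia and -0.02 in hypoxia by its brightest probe set, while the 3 others gave -0.61 to -1.50 in hypoxia. TIRAP, an adaptor of Toll-like receptors, had 4 probe sets ranging from -0.34 to 0.29 in normoxia and from -1.21 to 0.21 in hypoxia. VSIG2, TMEM218 and ACRV1 each had 1 probe set of the opposite direction at 1 oxygen level.

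**Figure D3:**
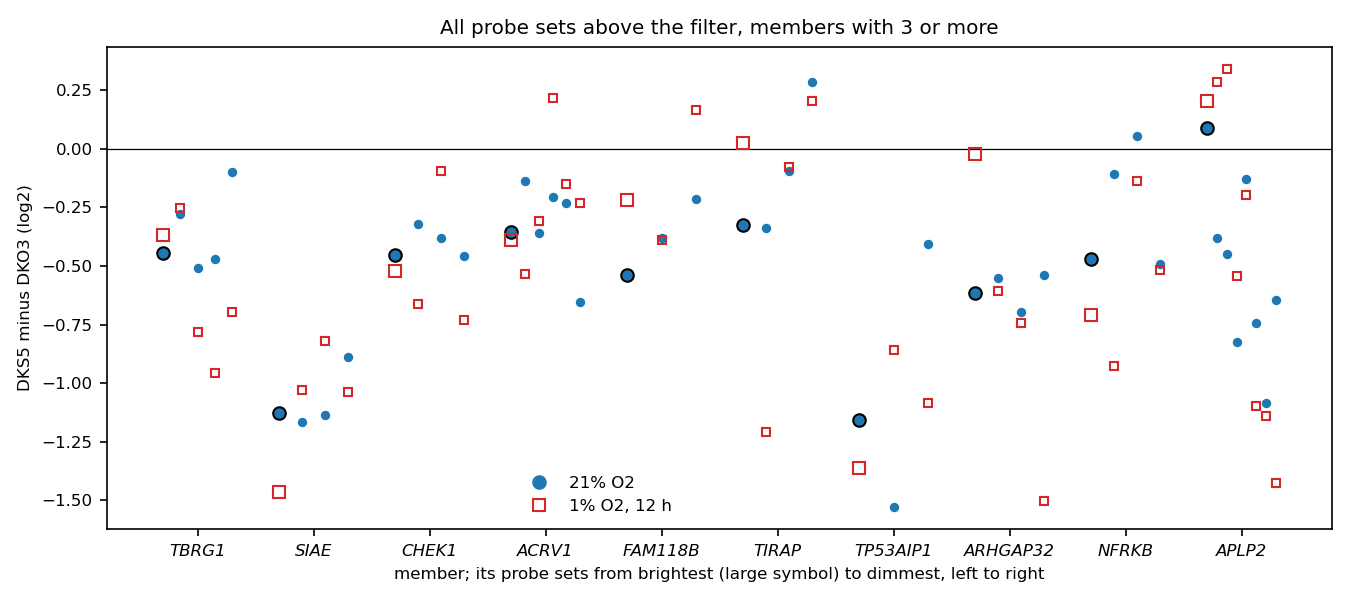
DKS5 minus DKO3 (log2) for each probe set above the filter of the members with 3 or more of them, ordered from the brightest (large symbol) to the dimmest, with circles for 21% O2 and squares for 1% O2. All probe sets of TBRG1, SIAE, CHEK1, TP53AIP1 and ARHGAP32 lie below 0, while those of ACRV1, FAM118B, TIRAP, NFRKB and APLP2 lie on both sides.

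The 35 members below the filter added little. Their mean signals ran from 0.65 to 12.7, and they included 8 olfactory receptor genes and pseudogenes (mean signals of at most 7.36), 12 long non-coding RNA genes and 15 others, such as the sodium channel subunit gene SCN3B, the adhesion gene KIRREL3, the homeobox gene BARX2, the potassium channel gene KCNJ1 and FLI1. Of the 35, 6 were lower in DKS5 at both oxygen levels and 8 were higher at both.

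The ends of the run were no sharp borders. On the centromeric side, the nearest gene above the filter, JHY, a gene linked to motile cilia, gave 60.5 and 50.7 in DKS5 normoxia, 49.4 and 61.6 in DKS5 hypoxia, 12.7 and 14.9 in DKO3 normoxia, and 15.4 and 15.2 in DKO3 hypoxia, a difference of 1.26 and 1.19. Next outward, the T-cell adhesion molecule gene CRTAM differed by -0.86 and -0.95, and the phosphatase gene UBASH3B by 0.59 and 0.97. Further out, SORL1, a sorting receptor, and SC5D, an enzyme of cholesterol synthesis, were higher by 0.91 and 0.98, and by 1.29 and 1.64. CLMP and ZNF202 thus share their direction with most of the outer neighbours named here, and the lower stretch starts telomeric of them. Of all 17 centromeric neighbours above the filter, 9 were higher and 8 lower in DKS5 in normoxia. In hypoxia 10 were higher and 7 lower, among them TRIM29 at -1.36.

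On the telomeric side, ZBTB44, ADAMTS15 and LINC02551 differed by -0.16 and -0.05, -0.02 and -0.41, and -0.17 and -0.26. Nearer the chromosome's end, THYN1, ACAD8 and VPS26B were again lower in DKS5, with differences of -1.42 and -1.47, -0.97 and -0.93, and -0.70 and -0.71, while GLB1L2 was higher by 0.83 and 0.20. THYN1 and ACAD8 are a head-to-head pair too.

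As a group, the 25 nearest measured genes on the centromeric side had medians of -0.04 and 0.03, and the 17 of them above the filter 0.22 and 0.17. The 22 genes from ST14 to the end of the arm had medians of -0.12 and -0.13, and the 12 above the filter -0.16 and -0.35. The other 692 genes of chromosome 11 above the filter had medians of 0.04 and -0.02. The hypoxic median of the telomeric neighbours was therefore as low as that of the run, and the normoxic one lay between the run and the rest of the chromosome.

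**Figure D4:**
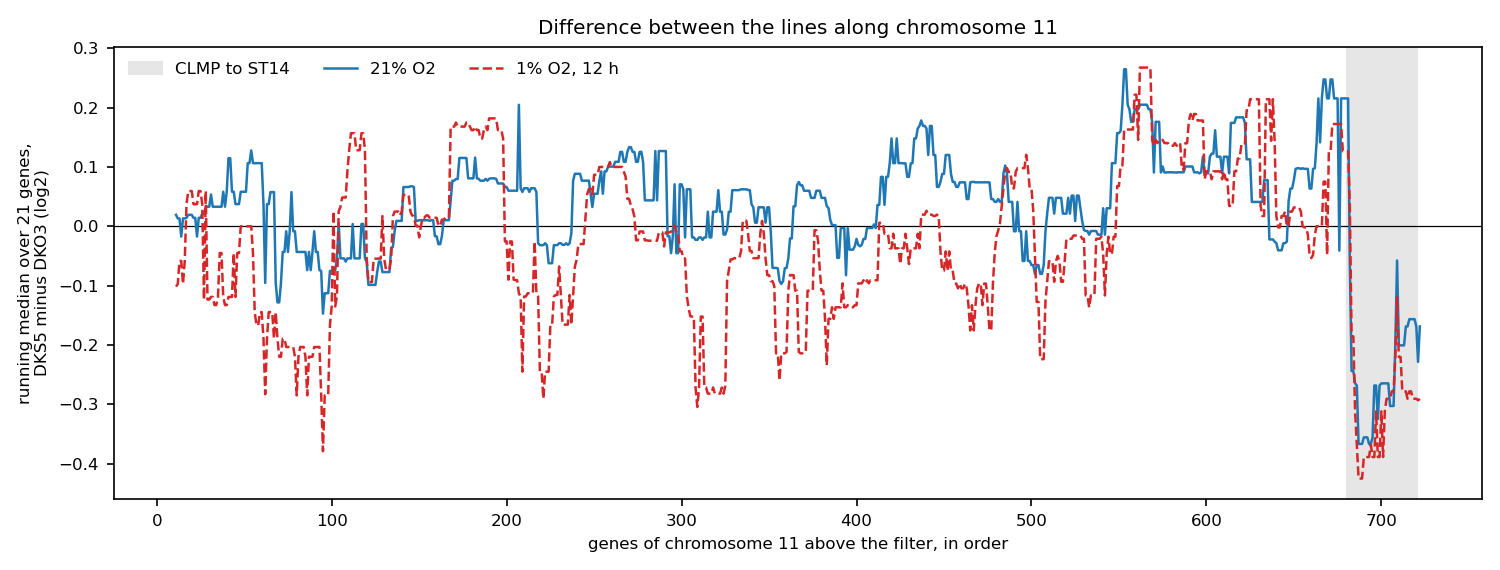
Running median over 21 neighbouring genes of DKS5 minus DKO3 (log2) along chromosome 11, for its 732 genes above the filter, with the run shaded, solid for 21% O2 and dashed for 12 h at 1% O2. Both lines reach their lowest values inside the shading, in windows centred on genes from NRGN on, at -0.37 and -0.43.

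Along the whole chromosome, a running median over 21 genes gave 712 windows. In normoxia the lowest value, -0.37, was shared by the 5 windows centred on NRGN, VSIG2, ESAM, CCDC15 and TMEM218. In hypoxia the lowest, -0.43, was shared by 3, those of NRGN, VSIG2 and ESAM. The highest values were 0.26 in normoxia, in 2 tied windows at MED17 and PANX1, and 0.27 in hypoxia, in 7 tied windows from ENDOD1 to CCDC82. The minimum restates the choice of the run and is no independent sign of it.

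The oxygen response of the run was tested, since it played no part in the choice. No member passed the threshold of an adjusted p of 0.05 (limma, Benjamini-Hochberg over 12735 genes) for hypoxia in DKS5, where 0.503% of all genes did, all of them higher in hypoxia. The same held in DKO3, where 0.346% did, again all higher, and for the difference between the responses of the lines, where 0% did. At an unadjusted p under 0.05 the counts were 1, 6 and 1 of 40, beside 6.93%, 10.5% and 2.61% of all genes. The medians of the 40 for hypoxia minus normoxia were 0.01 in DKS5 and 0.11 in DKO3, beside 0.02 and 0.04 over all genes. On simulated data a 2-fold oxygen change was recovered for 35% of changed genes in DKS5 and 22% in DKO3, and a 2-fold difference between the responses for 4% (63% at 4-fold), so changes of that size could be missed.

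The members with the smallest p-values had these oxygen responses. ZNF202, whose signals are given above, gave lower signals on both hypoxia arrays of each line, with a difference of -0.72 ± 0.256 in DKS5 (SE, adjusted p = 0.557) and -0.65 ± 0.256 in DKO3 (adjusted p = 0.401, limma). RPUSD4 differed by -0.64 ± 0.170 in DKO3 (adjusted p = 0.181) and by 0.06 ± 0.170 in DKS5 (adjusted p = 0.967). The difference between these responses was 0.70 ± 0.241, with an unadjusted p of 0.0106 and an adjusted p of 1.00 (limma). None of these passed the threshold.

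TMEM45B differed by 0.79 ± 0.311 in DKO3 (adjusted p = 0.404, limma), with both hypoxia arrays above both normoxia arrays. DDX25 differed by 0.48 ± 0.254 in DKS5 (adjusted p = 0.773), and by 0.76 ± 0.359 between the responses of the lines (adjusted p = 1.00). FOXRED1, an assembly factor of respiratory complex I, gave 112 and 120 in DKS5 normoxia, 106 and 74.9 in DKS5 hypoxia, 103 and 143 in DKO3 normoxia, and 201 and 143 in DKO3 hypoxia. Its responses differed by -0.76 ± 0.381 (adjusted p = 1.00). KCNJ5-AS1 differed by 0.41 ± 0.235 in DKS5 (adjusted p = 0.796) and by 0.39 ± 0.235 in DKO3 (adjusted p = 0.582).

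**Figure D5:**
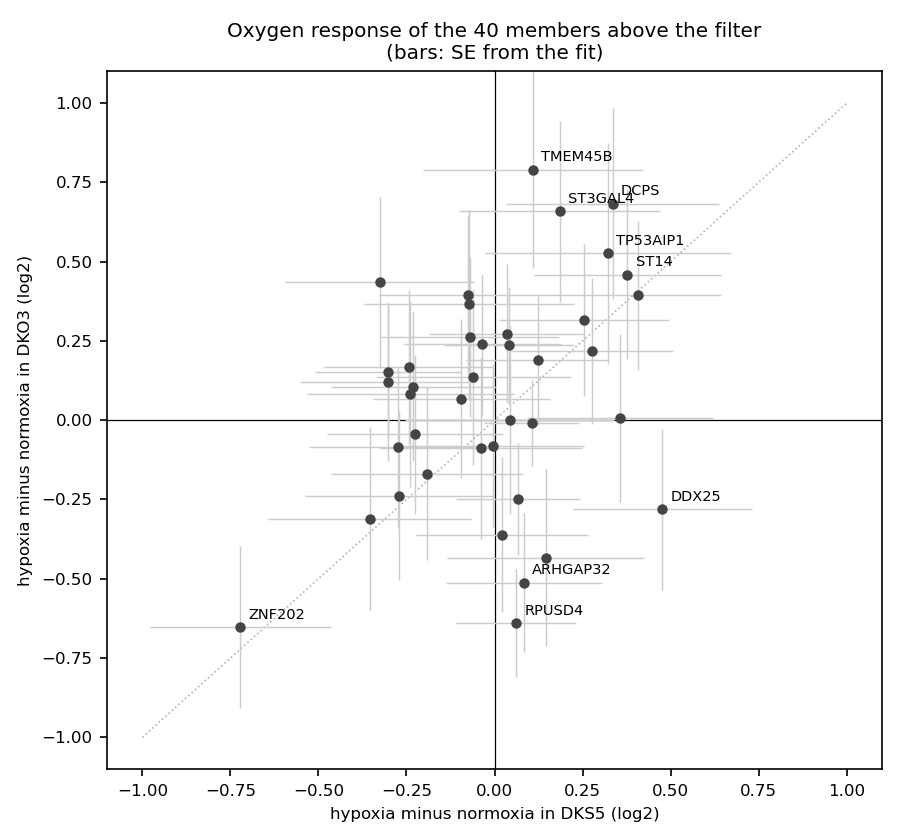
Hypoxia minus normoxia (log2) in DKS5 (horizontal) and DKO3 (vertical) for the 40 members above the filter, with bars for the standard error from the fit and a dotted line where both are equal. ZNF202 lies low in both lines, RPUSD4 and ARHGAP32 low in DKO3 alone, and no point passed the test in either direction. The point of ARHGAP32 is its brightest probe set, at -0.51 in DKO3. Its other probe sets above the filter gave 0.04, 0.12 and 0.94 there.

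Genes elsewhere in the genome that work with members, or belong to the same gene family as a member, were taken as 7 lists. Of the genes in these lists, 1 passed the test between the lines at either oxygen level. They were tested one gene at a time with limma over all genes, where 324 of 12735 (2.54%) passed in normoxia, 90 higher and 234 lower in DKS5, and 557 (4.37%) in hypoxia, 177 higher and 380 lower. Without array scaling the hypoxic split was 63 higher and 2320 lower. Of 17 other ETS family genes, 1 was higher in DKS5 and 0 lower at each oxygen level. This was ETV1, a transcription factor of the PEA3 group, with signals of 81.5 to 122 in DKS5 and 9.48 to 31.9 in DKO3 and differences of 1.51 ± 0.268 (adjusted p = 0.0049) and 2.04 ± 0.268 (adjusted p = 0.000366). The medians of the ETS list were 0.08 and 0.10.

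None of the 5 tested matriptase partners passed, among them the inhibitors SPINT1 and SPINT2 and the protease PRSS8, nor did any of 14 checkpoint partners of CHEK1, whose medians were 0.13 and 0.22. The same was true of 16 partners of STT3A and SRPRA, with medians of -0.03 and 0.05. STT3B, the alternative catalytic subunit, gave 0.50 ± 0.174 (adjusted p = 0.198) and 0.52 ± 0.174 (adjusted p = 0.115), opposite in sign to STT3A. None of 13 INO80 subunits and partners of NFRKB passed, with medians of 0.09 and -0.05.

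None of 9 genes of APP family and processing passed, with medians of -0.27 and -0.49. PSEN2, a presenilin of gamma-secretase, differed by -1.51 ± 0.598 in hypoxia (adjusted p = 0.187), with signals of 397 and 56.4 in DKS5 and 853 and 264 in DKO3. None of 8 sialyltransferase relatives of ST3GAL4 passed, with medians of -0.25 and -0.53. ST6GAL1 gave 13.0 to 16.7 in DKS5 and 23.6 to 41.5 in DKO3, differing by -0.52 ± 0.248 (adjusted p = 0.45) and -0.73 ± 0.248 (adjusted p = 0.116). In the oxygen contrasts 0 genes of these 7 lists passed.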

How the data were processed

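Gene expression was measured on 8 Affymetrix arrays, 2 in each of 4 groups taken from the labels. The deposited values are linear intensities of 54675 probe sets, which per the submitters' processing notes come from the authors' MAS5 run. Its version and target are not given in the sources used here. Each array was scaled to the median 2% trimmed mean (172.1), and log2(signal + 16) was taken. No control probe set (62) was used. Of the rest, 41091 had 1 gene symbol in the platform annotation, 1801 had several and 11721 were unnamed here. The brightest probe set stood for each gene, and 12735 genes above the 40th percentile were fitted with limma 3.58.1 in R 4.3.3 (1 mean per group, trended eBayes, two-sided, Benjamini-Hochberg). The residual degrees of freedom were 4 and the prior ones 11.3. The script was tested on simulated data, where 90% and 88% of 4-fold oxygen changes were recovered in DKS5 and DKO3.

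The run, its members and the lists were chosen with earlier results of these data known. Genes named by rule were the ends of the run, members above the filter with a difference between the lines of 1 or more, members opposite to most by 0.5 or more, the 3 smallest p-values of each oxygen contrast, members with probe sets of opposite direction, the 3 nearest outside genes on each side and up to 3 genes of each partner list. Other genes were named after their values were seen, for their role or place. Alternatives were other scaling, pseudocount, filter and probe set rules, a replicate block, the GAPDH ratio as a covariate, other flank sizes, the 4 compared arrays alone and each array left out.

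Replicate numbers 1 and 2 are given in the labels of every group, but nothing says that they mark a shared culture or day.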

Additional observations from a re-analysis of the deposited data

Results flagged for a closer look

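In 3 of the 40 members above the filter (7.5%, beside 3.11% of all genes above it) both hypoxia arrays lay on one side of both normoxia arrays in DKS5 and on the other side in DKO3. For CLMP the difference of the responses, DKS5 minus DKO3, was -0.41 ± 0.343 (SE, adjusted p = 1.00, limma). For SIAE it was -0.34 ± 0.331 and for FAM118B 0.32 ± 0.250, each also with an adjusted p of 1.00 (limma interaction term). None of the differences passed the test. The pattern is that of the brightest probe sets. For SIAE the other probe sets above the filter gave 0.34, 0.02 and -0.18 for hypoxia minus normoxia in DKS5. In DKO3 the same probe sets gave 0.03, -0.12 and -0.04. For FAM118B the others gave -0.11 and 0.14 in DKS5, and -0.11 and -0.24 in DKO3. Below the filter, LOC101929538 had the same pattern at signals of 0.66 to 8.37.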

How the results depend on the processing

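0 members passed for either oxygen contrast or for the difference of responses under every alternative run. Over all genes, 64 passed for hypoxia in DKS5, and 32 without array scaling, 35 without the filter, 40 with all probe sets of a gene averaged and 36 with only the 4 arrays compared (with an array left out, 29 without replicate 1 of DKS5 normoxia, 37 and 40 without replicate 2 of DKS5 normoxia and of DKS5 hypoxia, and 294 without replicate 1 of DKS5 hypoxia). In DKO3, 44 passed, and 84, 7, 92, 1 and 68 without scaling, without the filter, with the replicate block, with the RNA quality covariate and with only the 4 arrays (with an array left out, 1 and 22 without replicates 1 and 2 of DKO3 hypoxia, 24 without replicate 1 of DKO3 normoxia and 69 without replicate 2 of DKS5 hypoxia). Between the lines in normoxia 324 became 144 without the filter and 215 with the covariate (119 to 441 with an array left out, and 119 to 161 without any one normoxia array), and in hypoxia 557 became 2383 without scaling, 217 without the filter, 106 with the covariate and 357 with only the 4 arrays (135 to 761 with an array left out, the lowest 135 and 258 without replicates 1 and 2 of DKO3 hypoxia).

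The median difference between the lines stayed below 0 in every setting. Over all 75 members it was -0.24 in normoxia with a pseudocount of 1 and -0.035 with 64 (-0.13 to -0.07 with an array left out), and in hypoxia -0.28 without scaling, -0.026 after quantile normalization and -0.22 with a pseudocount of 1 (-0.15 to -0.11). Over members above the filter it was, in normoxia, -0.33 with a pseudocount of 1, -0.20 with 64, -0.10 without the filter and -0.33 with the covariate (-0.32 to -0.22). In hypoxia it was -0.69 without scaling, -0.23 after quantile normalization, -0.39 with a pseudocount of 1, -0.21 with 64, -0.11 without the filter, -0.37 with a filter at the 60th percentile and -0.39 with the covariate (-0.37 to -0.24). Omitting the scaling moved the hypoxic median of all genes by -0.38, and the members' median relative to all genes was then -0.27, beside -0.28. The centromeric neighbours gave 0.22 in normoxia and 0.29 in hypoxia for 15 genes and 0.061 in normoxia for 40; the telomeric side has only 22 genes, so 40 could not be run. The cause of these moves was not tested. The replicate block moved no other count by over 1.5 times. Same-numbered arrays had deviations that correlated by -0.09 to 0.33, highest between the hypoxia arrays of the lines. With 2 numbers a group, and no label saying what a number marks, the arrays were not treated as pairs.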
